A study of Mus musculus with 2 samples.

Results

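GC-rich elements distal to promoters are regions of the mouse genome that scored in a reporter assay, lie away from annotated promoters and are made mostly of G and C. They were picked from a list of 10531 elements by 2 properties of the sequence and its place, not by activity. The midpoint had to lie more than 1000 bp from every transcription start site (TSS) and in no exon of the GENCODE M21 basic set, and at least 60% of the bases had to be G or C. The rule found 365 members, against 4385 GC-rich elements at promoters and 4409 distal elements under 60% GC. CpG islands far from known promoters, called orphan islands, are among the members.

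The assay was STARR-seq, in which DNA fragments are cloned downstream of a promoter on a plasmid, where each can raise or lower its own RNA output. The single group was activated naive CD4-positive, alpha-beta T cells from mice of strain C57BL/6NJ, transiently transfected with the episomal plasmids and given 3 days of antibodies to CD3e, CD28, interleukin-4 and interferon-gamma together with interleukin-2. The labels give 2 biological replicates, as separate biosamples with 1 donor record, and no second condition. Both replicates were combined by the authors into 1 list with an effect and an adjusted p-value per element, so no value per replicate can be shown and every value here is the authors' joint one.

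The effect was taken as log2. Its sign was not explained in the sources used here. An element with an effect above 0 is called positive and likely gave more reporter RNA than its input predicts, and one below 0 is called negative. The depth behind each value is unknown. The list reports only elements with an adjusted p-value of up to 0.01, so a region outside it was not analysed here.

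CpG islands are stretches where the dinucleotide CpG, elsewhere depleted because methylated cytosine tends to mutate to thymine, has been kept. Most lie at promoters, where they are normally free of methylation, and are bound by proteins with a CXXC zinc finger such as KDM2B and CXXC1. Islands away from annotated promoters often mark alternative or tissue-specific start sites, or are covered by Polycomb proteins in cells in which the nearby gene is silent. A plasmid reporter reads the sequence outside its chromosome, without the methylation and histone marks of the native locus.

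The members differ in how much CpG they hold, and the printed sequences show this range, with CpG in capitals. All are on build mm10, read from the GRCm38.p6 genome, on the forward strand. For elements over 300 bp the middle 300 bp are shown. Negative members come first: the most negative element of the whole list, nearest to Epm2a (effect -8.53), a CpG-dense element in an intron of Lncppara (-3.32), the distal element of Gata4, a transcription factor of heart and endoderm (-2.64), an element downstream of Id3, an inhibitor of E proteins in lymphocytes (-1.39), and the member with the highest GC content, in an intron of the Polycomb cofactor Jarid2 (-1.19).
Epm2a element, chr10:11491964-11492263: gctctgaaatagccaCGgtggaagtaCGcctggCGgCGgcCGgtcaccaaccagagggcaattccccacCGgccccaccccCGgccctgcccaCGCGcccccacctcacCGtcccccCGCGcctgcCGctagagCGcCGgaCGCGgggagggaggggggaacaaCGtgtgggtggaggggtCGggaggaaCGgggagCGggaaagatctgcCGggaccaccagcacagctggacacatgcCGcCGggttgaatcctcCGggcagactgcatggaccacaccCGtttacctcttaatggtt
Lncppara element, chr15:85671101-85671400: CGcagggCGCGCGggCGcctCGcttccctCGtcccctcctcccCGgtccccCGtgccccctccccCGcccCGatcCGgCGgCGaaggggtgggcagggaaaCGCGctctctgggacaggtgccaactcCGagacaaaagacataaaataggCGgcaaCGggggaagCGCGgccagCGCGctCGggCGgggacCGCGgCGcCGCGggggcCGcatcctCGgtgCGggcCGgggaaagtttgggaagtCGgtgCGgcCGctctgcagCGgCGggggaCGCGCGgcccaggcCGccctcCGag
Gata4 element, chr14:63255864-63256163: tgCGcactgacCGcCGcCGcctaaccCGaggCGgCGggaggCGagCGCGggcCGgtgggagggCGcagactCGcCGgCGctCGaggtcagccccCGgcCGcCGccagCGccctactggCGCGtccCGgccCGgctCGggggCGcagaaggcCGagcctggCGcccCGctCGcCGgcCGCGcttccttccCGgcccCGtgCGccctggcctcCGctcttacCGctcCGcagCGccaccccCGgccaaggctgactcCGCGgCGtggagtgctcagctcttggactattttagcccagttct
Id3 element, chr4:136147926-136148050: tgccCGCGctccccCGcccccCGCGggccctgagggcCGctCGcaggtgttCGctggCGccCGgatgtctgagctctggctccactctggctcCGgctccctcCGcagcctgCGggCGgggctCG
Jarid2 element, chr13:44733501-44733575: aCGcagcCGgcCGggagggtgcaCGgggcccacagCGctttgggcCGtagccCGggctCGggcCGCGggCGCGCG

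Positive members with no near-identical copy elsewhere follow. The Nr4a3 element (effect 1.98) is shown because it was as dense in CpG as many negative members. The Syt13 element (4.57) was the largest positive effect of a member with no copy, and held 1 CpG.
Nr4a3 element, chr4:48043076-48043375: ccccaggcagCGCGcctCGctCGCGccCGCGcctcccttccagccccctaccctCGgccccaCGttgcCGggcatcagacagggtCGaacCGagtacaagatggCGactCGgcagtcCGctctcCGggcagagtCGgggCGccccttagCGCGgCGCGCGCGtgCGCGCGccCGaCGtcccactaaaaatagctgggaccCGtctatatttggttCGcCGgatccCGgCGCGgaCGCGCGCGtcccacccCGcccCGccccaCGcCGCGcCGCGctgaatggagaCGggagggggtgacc
Syt13 element, chr2:92884001-92884225: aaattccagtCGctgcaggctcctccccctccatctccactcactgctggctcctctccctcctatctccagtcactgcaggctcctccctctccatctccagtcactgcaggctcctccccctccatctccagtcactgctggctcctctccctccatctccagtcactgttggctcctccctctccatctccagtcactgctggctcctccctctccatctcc

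Next are 2 positive members that have near-identical copies elsewhere in the genome, nearest to Pdia4 (effect 5.70) and to Samd9l (6.28). The first is dense in CpG and the second has none.
Pdia4 element, chr6:47757926-47758125: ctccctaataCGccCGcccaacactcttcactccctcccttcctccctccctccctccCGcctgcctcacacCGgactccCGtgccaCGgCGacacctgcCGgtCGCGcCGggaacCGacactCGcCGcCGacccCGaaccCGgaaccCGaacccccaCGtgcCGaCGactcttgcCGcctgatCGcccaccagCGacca
Samd9l element, chr6:3424726-3424825: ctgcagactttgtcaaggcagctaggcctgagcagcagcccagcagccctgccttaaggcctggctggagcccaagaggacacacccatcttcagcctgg

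The final pair are members in introns of 1 gene, Bcor, a corepressor of a Polycomb complex. Their CpG observed over expected was 0.78 in each, and their effects were of opposite sign, -1.14 and 1.27.
Bcor negative element, chrX:12091101-12091325: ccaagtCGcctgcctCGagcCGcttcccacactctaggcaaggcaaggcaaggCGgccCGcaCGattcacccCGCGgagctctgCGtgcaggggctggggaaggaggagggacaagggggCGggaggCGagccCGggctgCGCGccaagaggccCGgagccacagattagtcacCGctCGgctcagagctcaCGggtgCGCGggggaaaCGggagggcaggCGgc
Bcor positive element, chrX:12151726-12151975: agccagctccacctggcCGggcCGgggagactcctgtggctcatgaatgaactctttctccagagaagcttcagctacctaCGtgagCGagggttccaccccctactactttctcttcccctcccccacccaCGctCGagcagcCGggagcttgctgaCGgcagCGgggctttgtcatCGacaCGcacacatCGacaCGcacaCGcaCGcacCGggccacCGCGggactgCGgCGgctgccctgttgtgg

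Most members were negative. Of the 365, 83 (22.7%, 95% interval 18.5 to 27.4) had a positive effect, against 51.3% of all listed elements, and 282 a negative one, against 48.7%. An effect of at least 2 was listed for 38 members (10.4%; all elements 12.9%) and one of at most -2 for 55 (15.1%; all elements 9.92%). Shares carry exact Clopper-Pearson intervals and medians carry binomial order-statistic intervals, and both cover the spread between elements only, not the replicates. No test was made between sets of elements, because elements of 1 call set are not replicates of the experiment.

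The members lay between both of the larger sets that share 1 of their properties. The GC-rich promoter elements were positive in 300 of 4385 (6.84%, 6.11 to 7.63), and the distal elements under 60% GC in 4058 of 4409 (92.0%, 91.2 to 92.8). The 3 intervals did not overlap. GC-rich exonic elements were positive in 6 of 135 (4.44%, 1.65 to 9.42), below the members. By sign the members stood nearer to the GC-rich promoter elements than to the other distal elements.

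The median effect of the 282 negative members was -1.41 (-1.47 to -1.31), beside -1.50 (-1.52 to -1.48) in negative GC-rich promoter elements and -1.17 (-1.23 to -1.13) in negative distal elements under 60% GC. The 83 positive members had a median of 1.89 (1.37 to 2.43), beside 1.14 (1.05 to 1.19) and 1.38 (1.35 to 1.41). The larger positive median went with sequence copies, as the values by copy number show. Negative effects ran from -8.53 to -0.60 and positive effects from 0.62 to 7.23.

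Copies split the positive members. Another place in the genome that matched an element at 95% identity or more was counted as a copy, and reads from copies can be assigned to the wrong place or counted at several. There were 35 members with a copy, and 33 of them were positive (94.3%, 80.8 to 99.3), with a median of 3.52 (2.93 to 4.17). Of the 330 without a copy, 50 were positive (15.2%, 11.5 to 19.5), with a median of 1.21 (1.06 to 1.43). The median of negative members without a copy was -1.40 (-1.45 to -1.30). All annotated elements of the list showed the same split, with 605 of 610 elements with a copy positive (99.2%). How far the authors' alignment handled such copies is not given in the sources used here, and the part of copies in the effects was not tested.

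Among the 38 members at or above 2, 29 had a copy and 9 had none. The members with a copy were also narrow, with a median width of 100 bp beside 600 bp in those without. Their bases were masked as repeats to a median of 16%, beside 4.76%. In the plot of effect against GC content, the crosses for members with a copy lie nearly all above the line.

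**Figure D1:**
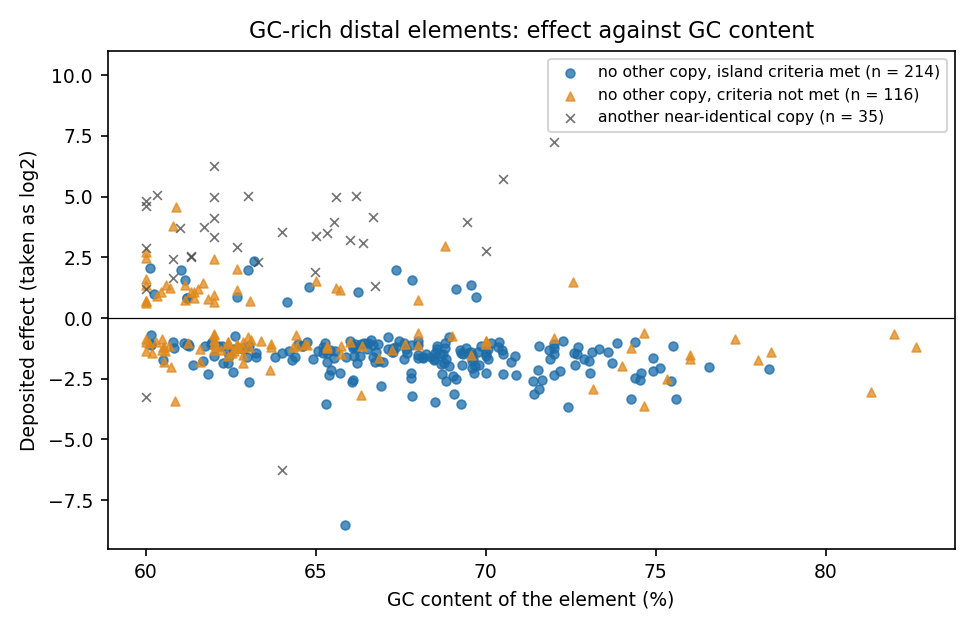
Deposited effect (taken as log2) of each of the 365 members against its GC content in percent. Circles are the 214 members without a copy that meet the island criteria, triangles the 116 without a copy that do not, and crosses the 35 with a copy; all but 2 crosses lie above 0, and above 70% GC nearly all other points lie below it.

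GC content ordered the sign within the members. From 60 to 62.5% GC, 45 of 98 members were positive (45.9%, 35.8 to 56.3), and from 62.5 to 65%, 13 of 57 (22.8%, 12.7 to 35.8). From 65 to 70% there were 21 of 134 (15.7%, 9.97 to 23.0), and at 70% or more 4 of 76 (5.26%, 1.45 to 12.9). None of the 15 members at or above 75% GC was positive, where the exact interval reaches 21.8%. The interval of the lowest bin stood apart from those of the 2 highest bins, and the intervals of neighbouring bins overlapped.

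The same order held without copies. There 30 of 82 (36.6%), 8 of 51 (15.7%), 11 of 124 (8.87%) and 1 of 73 (1.37%, 0.03 to 7.40) were positive in the 4 bins. The exception at or above 70% GC was a 175 bp element nearest to St6galnac5 (effect 1.47), which held little CpG (observed over expected 0.11) and was masked over 52.0% of its bases. At the GC threshold itself, distal elements of 59 to 60% GC were positive in 16 of 27 and members of 60 to 61% GC in 22 of 44, so the rule cuts through a gradient.

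GC-rich promoter elements followed the same order at lower shares. Those without a copy were positive in 98 of 423 (23.2%, 19.2 to 27.5) at 60 to 62.5% GC, 85 of 642 (13.2%, 10.7 to 16.1) at 62.5 to 65%, 62 of 1832 (3.38%, 2.60 to 4.32) at 65 to 70% and 9 of 1442 (0.62%, 0.29 to 1.18) at 70% or more. Beside the members without a copy, the interval stood apart from theirs in the 65 to 70% bin (members 4.51 to 15.3) and overlapped it in the other 3. As a description, Spearman's rho between effect and GC content was -0.44 over the 330 members without a copy and -0.47 over 4339 such promoter elements; these points share 1 call set, and their width and CpG content move with GC content.

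**Figure D2:**
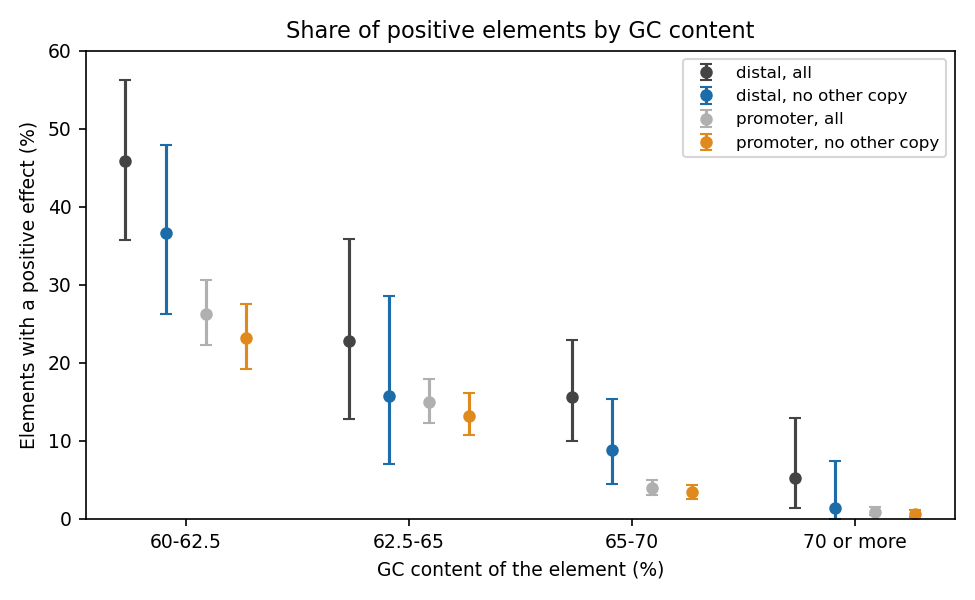
Share of elements with a positive effect (%, with exact 95% intervals) in 4 bins of GC content, for members (distal) and for GC-rich promoter elements, each with and without elements that have a copy. In all 4 sets the share is highest at 60 to 62.5% and lowest at 70% or more, and the distal points lie above the promoter points.

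Island sequence made up most of the members. The criteria used were at least 200 bp, at least 50% GC and a CpG observed over expected of at least 0.6, applied to the element itself. They were met by 222 of 365 members (60.8%, 55.6 to 65.9), by 3878 of 4385 GC-rich promoter elements (88.4%) and by 79 of 4409 distal elements under 60% GC (1.79%). Every member meets the GC criterion through the rule that picked it, while the last set had a median GC of 46.6%. The contrast with that set was therefore in part fixed by the rule. Members were thus less often islands than promoter elements of the same GC class. Median CpG density was 76.0 per kb in members and 95.2 in those promoter elements, and median observed over expected 0.72 and 0.84.

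Members that met the criteria were mostly negative. They were positive in 24 of 222 (10.8%, 7.05 to 15.7), and the other members in 59 of 143 (41.3%, 33.1 to 49.8). Without copies the counts were 17 of 214 (7.94%, 4.70 to 12.4) and 33 of 116 (28.4%, 20.5 to 37.6). Both pairs of intervals stood apart. Over all annotated elements, 572 of 4665 that met the criteria were positive (12.3%, 11.3 to 13.2), and 4827 of 5856 others (82.4%). The share in island members thus lay near that of all islands in the list. Negative island members also had more negative effects, with a median of -1.49 (-1.61 to -1.42) beside -1.18 (-1.24 to -1.09). Over all annotated elements these medians were -1.49 and -1.23.

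GC content and island status overlap, so the counts were also read within GC bins, without copies. At 60 to 65% GC, 11 of 55 island members (20%, 10.4 to 33.0) and 27 of 78 others (34.6%, 24.2 to 46.2) were positive. At 65 to 70% GC the counts were 6 of 105 (5.71%, 2.13 to 12) and 5 of 19 (26.3%, 9.15 to 51.2). At 70% or more they were 0 of 54 and 1 of 19. The direction was the same in each bin. Each pair of intervals overlapped, which does not decide whether the shares within a GC bin differ, and that was not tested.

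CpG density itself differed by sign. Over all 282 negative members the median was 80.5 per kb (76.9 to 85.9), and over the 280 without a copy it was 81.5 (76.9 to 86.3). Over the 50 positive members without a copy it was 47.1 (36.4 to 66.7), and over all 83 positive members 42.7. Positive members with no copy nevertheless reached 112 per kb, at Nr4a3. By observed over expected, 18 of 50 members without a copy under 0.4 were positive, 12 of 49 from 0.4 to 0.6, 9 of 129 from 0.6 to 0.8 and 11 of 102 at 0.8 or more. Spearman's rho between effect and CpG density over the 330 was -0.45, as a description.

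**Figure D3:**
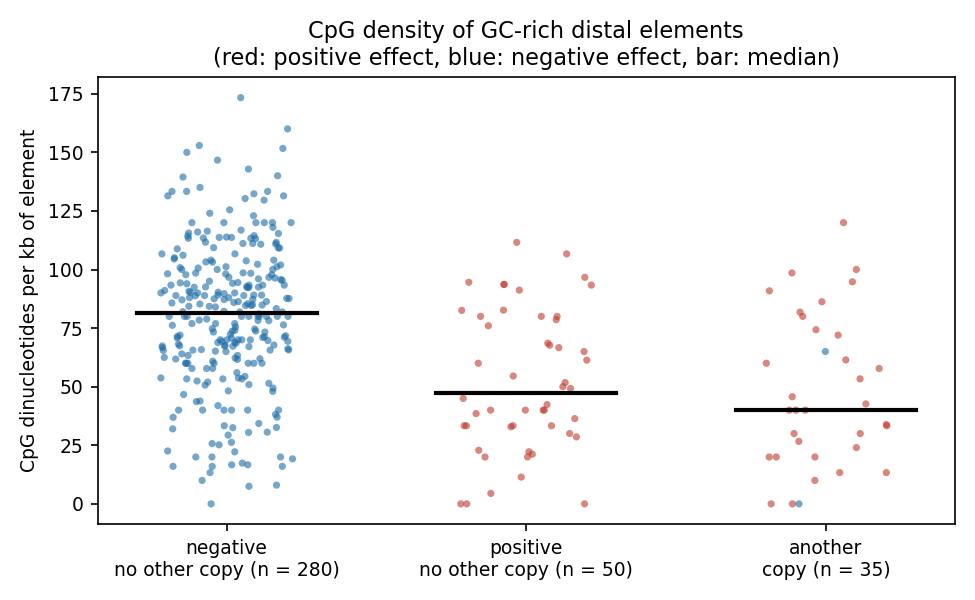
CpG dinucleotides per kb of each member, in 280 negative and 50 positive members without a copy and in 35 members with a copy. Each point is 1 element, red for a positive and blue for a negative effect, spread sideways only for display, and bars are medians; the negative group has the highest median, and the groups overlap.

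Width moved with the sign too. Members without a copy under 200 bp were positive in 19 of 49 (38.8%, 25.2 to 53.8), those of 200 to under 400 bp in 9 of 48 (18.8%), those of 400 to under 800 bp in 11 of 152 (7.24%, 3.67 to 12.6) and those of 800 bp or more in 11 of 81 (13.6%). The criteria for an island include a width, so width and island status cannot be told apart below 200 bp. A pattern of 4 runs of at least 3 G, or of at least 3 C, with gaps of up to 7 bases was counted. It is as in sequences that can form a G-quadruplex. The pattern was found in 189 members (51.8%), beside 35.36% of all annotated elements and 64.97% of GC-rich promoter elements. In distal elements under 60% GC the share was 8.62%. Without copies, 15 of 181 members with the pattern were positive (8.29%, 4.71 to 13.3) and 35 of 149 without it (23.5%, 16.9 to 31.1); GC content moves with this pattern, and its part was not tested.

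Where the members lie depends on the annotation. By the basic set, 174 lay in an intron (47.7%, beside 51.8% of distal elements under 60% GC) and 191 between genes. The median distance to the nearest TSS was 6703 bp (5780 to 8008) and the largest 435481 bp. The full GENCODE set put a TSS within 1000 bp of 102 members and RefSeq put one within 1000 bp of 129. In all, 156 members (42.7%, 37.6 to 48.0) were near a start site that the basic set leaves out, and 209 (57.3%) were distal by every set. Distal by every set refers here to start sites only, as exons of the fuller sets were not screened for that count. Of the members, 148 overlapped an exon of these fuller sets by at least 1 base and 24 an exon of the basic set.

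Members near such an extra start site were positive in 13 of 144 without a copy (9.03%, 4.89 to 14.9), and those distal by every set in 37 of 186 (19.9%, 14.4 to 26.4). For members that met the island criteria the 2 shares were close, at 8 of 113 (7.08%, 3.11 to 13.5) near an extra start site and 9 of 101 (8.91%, 4.16 to 16.2) distal by every set. The 106 island members distal by every set, counted with copies, are the orphan islands in the strict sense of distance from start sites. Some of them may overlap an exon of the fuller sets. Of these 93 were negative, with a median of -1.36 (-1.49 to -1.22), beside -1.65 (-1.78 to -1.47) for the negative island members near an extra start site.

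No order of the sign by distance to the basic start sites was resolved. Without copies, 9 of 80 members at 1000 to 2000 bp were positive (11.3%), 9 of 57 at 2000 to 5000 bp (15.8%), 19 of 118 at 5000 to 20000 bp (16.1%) and 13 of 75 farther out (17.3%); the shares rose with distance, but their intervals overlapped. Just outside the distance threshold, GC-rich elements that lay in no exon at over 800 and up to 1000 bp were positive in 7 of 60, and members at up to 1200 bp in 4 of 35. As a description, Spearman's rho between effect and distance was -0.06 over these 330 and -0.13 over the 280 negative ones. Without copies, intronic members were positive in 18 of 168 (10.7%, 6.47 to 16.4) and intergenic ones in 32 of 162 (19.8%, 13.9 to 26.7).

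**Figure D4:**
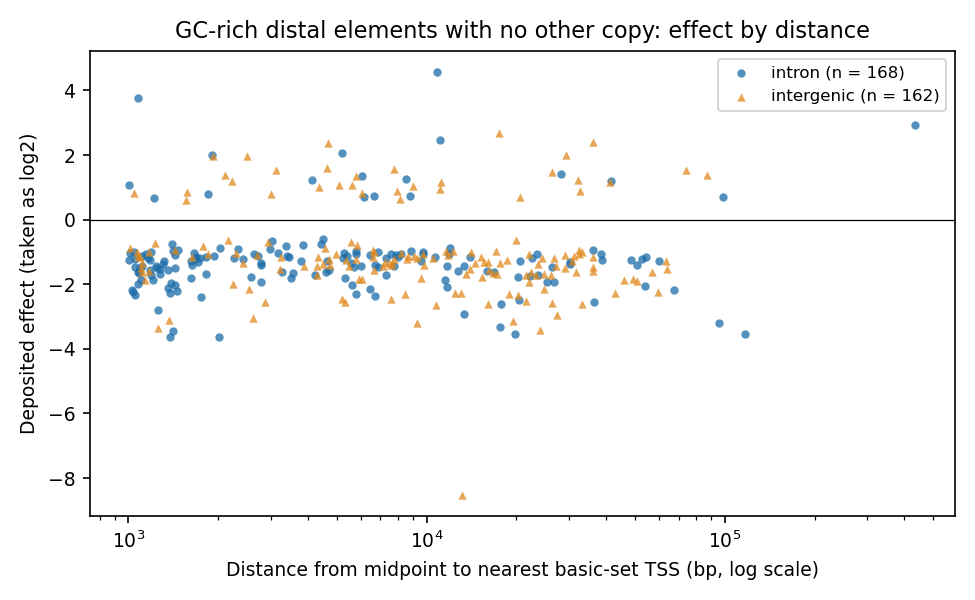
Deposited effect (taken as log2) of the 330 members without a copy against the distance in bp from the midpoint to the nearest start site of the basic set, on a log axis. Circles are 168 intronic and triangles 162 intergenic members; both signs are spread over all distances, and the point at -8.53 stands alone.

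The most negative member, printed above as the Epm2a element, had an effect of -8.53 over 325 bp at chr10:11491951-11492275. It is intergenic, 13183 bp from the nearest TSS, that of Gm48679, and 148709 bp from that of Epm2a, which encodes the glycogen phosphatase laforin. Its GC content was 65.8% and its CpG observed over expected 0.74, close to the member medians, and no copy was found. The next, -6.26, was a 50 bp element in an intron of Clip4 with 82.0% of its bases masked and 2 copies. The remaining 6 of the 8 most negative ran from -3.65 to -3.42, and none of them had a copy.

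Several of these lie by alternative starts. The Macf1 element (-3.65, chr4:123663676-123665325), in an intron of a gene for a cytoskeletal linker, was the widest, at 1650 bp, and lay 252 bp from a Macf1 start site of the full set. The Arhgef4 element (-3.62, 75 bp, chr1:34750726-34750800) lay 182 bp from a full-set start site of its gene, which encodes a guanine nucleotide exchange factor. The Bnc2 (-3.55) and Atp8a2 (-3.53) elements lay 715 and 176 bp from full-set start sites of their genes. An element of -3.46 in an intron of Gm15738 lay 1410 bp from the TSS of Mir193b, a microRNA gene, with Mrtfb as its nearest coding gene. The eighth, -3.42, 24047 bp from any start site and nearest to Sorcs1, was poor in CpG (observed over expected 0.28).

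All of the 8 largest positive effects had a copy, and 0 of them had none. They were listed for elements nearest to Gm10128 (7.23 and 4.98), Samd9l (6.28), Pdia4 (5.70), Atg7 (5.07), Ezh2 (5.01), Fcgr3 (5.01) and Gm3727 (5.00). These are the genes with the nearest coding TSS, not genes shown to be acted on. The Ezh2 element lay 78033 bp and the Pdia4 element 55405 bp from those genes, between both in 1 stretch of chromosome 6.

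That stretch held 5 members from 47672926 to 47758125, each with 13 to 16 copies. Their effects were 5.01, 4.81, 3.75 and 5.70, and for the 400 bp member at 47748326 the effect was -3.25. A second stretch, upstream of Atg7, an enzyme of autophagy, held 4 members with at least 35 copies each, up to the limit of 50 that was recorded, at 2.54, 3.71, 4.61 and 5.07. A further stretch of 1000 bp on chromosome 14 held 3 members near Gm10128, at 7.23, 4.98 and 4.17. Members of 1 such stretch can share sequence and are not independent values.

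Members without a copy reached lower positive effects, and the following were chosen after their values were seen. The largest were 4.57 (nearest to Syt13, in an intron of Gm13791, 59.6% masked), 3.77 (in an intron of Ermard, 77.6% masked) and 2.95 (in an intron of Il1rapl1, 43.2% masked). These 3 were short, at 225, 125 and 125 bp, and none met the island criteria. The printed Syt13 sequence shows its repeated unit directly. Counted with copies, 12 members were masked over at least 50% of their bases. Of these 11 were positive, 4 of them without a copy, and the exception was the Clip4 element, which had copies. Among all annotated elements 672 of the 710 masked to that extent were positive, so the members lay near the share of the list.

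Positive islands without a copy numbered 17, with effects from 0.65 to 2.36. The largest was a 975 bp element at chr8:84985451-84986425, 4665 bp upstream of Hook2 (2.36), with 3 AP-1 matches. Next came an element in an intron of Atp4a, the gastric proton pump (2.06), one in an intron of Impact (1.99), one upstream of Nr4a3 (1.98) and one upstream of Rabepk (1.97). The others were nearest to Olfr545 (1.56), Papss1 (1.55), Prr7 (1.36), Bcor (1.27), Junb (1.19), Chd2 (1.06), Nyx (1.00), 1700001O22Rik (0.88), Cdk6 (0.87), Kcnrg (0.84), Foxo3 (0.82) and Catspere2 (0.65). Annotation qualifies some: the Atp4a element lay 382 bp and the Junb element 54 bp from a full-set start site of its gene, and the Papss1 element 16 bp from one of Sgms2. The 9 elements nearest to Nr4a3, Foxo3, Chd2, Bcor, Prr7, Rabepk, Olfr545, 1700001O22Rik and Hook2 were over 1000 bp from every start site of the fuller sets.

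The Hook2 element shows AP-1 matches inside a GC-rich sequence. AP-1, the FOS and JUN dimer induced by T cell receptor signalling, binds the 7 bases TGANTCA. The 300 bp of the element with the most matches are printed with those matches in capitals.
Hook2 element, chr8:84985557-84985856: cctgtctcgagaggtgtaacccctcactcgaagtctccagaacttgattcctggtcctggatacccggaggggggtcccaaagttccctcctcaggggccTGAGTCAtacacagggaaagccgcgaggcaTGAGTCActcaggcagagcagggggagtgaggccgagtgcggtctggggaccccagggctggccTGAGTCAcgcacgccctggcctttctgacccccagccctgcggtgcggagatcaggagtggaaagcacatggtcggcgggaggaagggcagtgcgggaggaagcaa

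Motif matches were counted on both strands in the central 200 bp of elements at least 200 bp wide, which left 294 members (251 negative, 43 positive) and 9508 listed elements. AP-1 matched 16 members (5.44%, 3.14 to 8.69), 14.6% of all listed elements and 1.77% of GC-rich promoter elements. It matched 7 of 43 positive members (16.3%, 6.81 to 30.7) and 9 of 251 negative ones (3.59%, 1.65 to 6.70), and the 2 intervals barely stood apart. None of those 7 had a copy. Over whole elements of any width, copies included, the shares were alike: 9 of 83 positive members (10.8%) and 31 of 282 negative ones (11%) held a match. All 9 were among the 50 positive members without a copy, and no positive member with a copy held a match. Median width was 300 bp in those 50 and 625 bp in the 280 negative members without a copy.

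The 9 positive members with an AP-1 match had effects from 0.71 to 2.36 and no copies, and are named after their values were seen. Besides Hook2, Papss1 and Impact, they were nearest to Nhsl2 (1.18), Syt7 (1.24), Hspb7 (1.08), 1700001O22Rik (0.88), Kcnrg (0.84) and Hdac7 (0.71). The Nhsl2 element, 650 bp at chrX:101953976-101954625, had 3 matches. Wider elements have more room for a match, and the part of width was not tested.

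The NFAT, RUNX and interferon-stimulated response element motifs of T cell enhancers matched a smaller share of members than of all listed elements. Their shares in GC-rich promoter elements were lower still, while ETS matched 0 members and 0.49% of those promoter elements. NFAT (TGGAAA) matched 28 members (9.52%, 6.42 to 13.5, beside 15.2% of all listed elements and 4.36% of GC-rich promoter elements). RUNX (TGTGGTT) matched 5 (1.70%, 0.55 to 3.92, beside 5.60% and 0.84%), and the interferon-stimulated response element 4 (1.36%, 0.37 to 3.45, beside 6.83% and 0.62%). For RUNX and the response element the interval of the members covered the promoter share. The rule selects on GC content, and its part in these shares was not tested. The GC box, the E-box and CTCF matched a larger share of members than of all listed elements. The GC box (GGGGCGGGG), bound by SP factors, matched 40 members (13.6%; 8.32% of all, 16.3% of GC-rich promoter elements), at 13.9% of negative and 11.6% of positive members. The E-box CACGTG, bound by MYC, MAX and USF, matched 23 (7.82%, 5.02 to 11.5; 4.41% of all, 5.47% of GC-rich promoter elements). The motif of CTCF, an insulator protein, matched 13 (4.42%, 2.38 to 7.44; 2.03% of all, 2.07% of GC-rich promoter elements). For the E-box the interval of the members covered the promoter share.

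Promoter motifs were few in the members and in the whole list. The cyclic AMP response element (TGACGTCA) matched 1 member (0.34%, beside 1.69% of all listed elements) and YY1 (AAGATGGCG) 2 (0.68%, beside 1.42%). E2F (TTTNGCGC) matched 5 (1.70%, beside 0.81%) and the NRF1 motif 1 (0.34%, beside 0.39%). ETS (ACCGGAAGT), EGR (GCGTGGGCG), ZBTB33 and REST motifs matched 0 of 294, where 0.34%, 0.705%, 0.15% and 0.01% of all listed elements matched. These shares are low in all sets, so 294 members could not show a difference. The NF-kappaB motif matched 1 member (0.34%, beside 1.16% of all listed elements) and the GATA factor motif AGATAA 5 (1.70%, beside 4.68%). The core promoter box TATAAA matched 8 (2.72%, beside 5.00%) and the polyadenylation signal AATAAA 6 (2.04%, beside 7.80%). The KLF motif CCACACCC matched 10 (3.40%, 1.64 to 6.17, beside 2.01%) and the ZFX motif AGGCCTNG 15 (5.10%, 2.88 to 8.28, beside 4.07%). Both shares were larger than in the list, but both intervals covered the share of the list. A GC box match can overlap a CpG run, and a match describes letters only.

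Most members shared the sign of their nearest listed element at any distance, 239 of 365. Negative effects were listed for 77.3% of members and 48.7% of all listed elements, and their part in this count was not tested. Of the members, 55 had another listed element within 1000 bp, and 50 of these had the sign of that neighbour, against 140 of 241 where the nearest element was over 10000 bp away. With a negative neighbour within 1000 bp, 41 of 42 were negative, and none of the 42 had a copy. With a positive one, 9 of 13 were positive, but without copies only 1 of 5 was, so that agreement rested on members with copies. Adjacent elements may be pieces of 1 active stretch, and STARR-seq fragments can span both, so these are not separate observations.

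The 5 exceptions, named here after their values were seen, had no copy. An element in an intron of Prr7, a T cell adaptor protein, had an effect of 1.36 with a negative neighbour at a gap of 275 bp. An element near Mef2c, in an intron of C130071C03Rik, had -2.02 with a promoter element of 1.23 at 850 bp. An element nearest to H2al1j on chromosome X (GC 71.4%) had -3.14 with a neighbour of 0.83 at 125 bp. The other two were nearest to Camk2n1 (-1.19 beside 0.98 at 275 bp) and Elovl5 (-1.17 beside 0.62 at 25 bp).

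The nearest coding gene often had promoter elements of its own in the list. For 96 members these were all negative, and 86 of the 96 were negative too, where 77.3% of all members were. Without copies the count was 86 of 95, beside 84.8% of members without a copy. For 11 members they were all positive, and 7 of the 11 were positive, or 4 of 8 without copies. For 255 members the gene had no listed promoter element, and 66 of these were positive, or 37 of 224 without copies. Nr4a3 is a case with a positive member and a positive promoter, and Bcor a case of negative promoter elements with members of both signs.

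The 365 members were spread over 331 nearest coding genes, and only 5 genes had 3 or more. Besides Pdia4, Atg7 and Gm10128, whose members had copies, these were Bcor with 5 and Id3 with 3, none with a copy. At Bcor, the effects were -2.26, -1.39, -1.14, -1.10 and 1.27. The first lay 273003 bp from the gene, the other 4 in its introns, the 1.27 element (chrX:12151726-12151975) at 8505 bp from a Bcor TSS.

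The pair printed for Bcor had CpG in like amounts, at 0.78 observed over expected in each. The negative one held 71.6% GC and the positive one 64.8%. With 1 joint value per element, how well this contrast repeats between replicates is not known.

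At Id3 all 3 members were negative, at -1.42, -1.39 and -1.20. The first and second lie 25 bp apart, 4303 and 4491 bp downstream of the TSS, with GC contents of 68.5% and 78.4%. The third, 32697 bp upstream, had little CpG (observed over expected 0.08) and an AP-1 match. Id3 thus held both an island-like and a CpG-poor member with similar effects.

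Gene lists were read against the nearest coding genes. Of 271 genes on 9 lists, all were found in the annotation, and 21 were nearest to 29 members, 6 positive (20.7%) and 23 negative. That share lay near the 22.7% of all members. Lists and members were chosen with earlier results known, so the counts only describe.

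Transcription factors of development were nearest to 6 members, and all 6 were negative, where 77.3% of all members were. They included elements near Gata4 (-2.64), Pax7, a muscle and neural crest factor (-1.87), Sox9, a cartilage and testis factor (-1.44), and Neurog2, a neuronal factor (-1.41). The Sox9 element was far from that gene, at 383101 bp. The Gata4, Pax7, Sox9 and Neurog2 elements were distal by every set.

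Factors of the T lineage were nearest to 5 members, all negative: the 3 at Id3, 1 at Ets1 (-1.36) and 1 at Bcl11b (-0.83), which is needed for T cell commitment. So few members are not set apart from the 77.3% of all members, and of the 80 elements of any class nearest to genes of this list 50 were positive. Genes of T cell activation had 2, with Nr4a3 positive (1.98) and Egr3 negative (-1.04). Both encode factors induced by T cell receptor signalling, and both elements lie upstream, at 1928 and 2290 bp. The Egr3 element, 725 bp with observed over expected 0.71, met the island criteria like the Nr4a3 element, so both signs occurred among islands upstream of activation genes.

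Genes of DNA methylation and Polycomb had 12 members, 3 positive and 9 negative. The positive ones included the copy-bearing Ezh2 element (5.01) and the Bcor element (1.27). The negative ones lay near Bcor, Ezh2 (-0.99), Bmi1 (-1.23), Jarid2 (-1.19), Cxxc5 (-1.15) and Kdm2b (-0.93). The Jarid2 element, 75 bp with 82.7% GC, was too short for the island criteria, and the Kdm2b element lay 143 bp from a full-set start site of that gene, whose product binds unmethylated CpG.

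Imprinted genes had 1 member. It was a 1400 bp island in an intron of Impact, with an effect of 1.99, a GC content of 63.0% and an observed over expected of 0.81. It lay 1902 bp from the basic TSS and 473 bp from a full-set start site of the gene. The maternal allele of Impact is known to be methylated in an intronic island, and a plasmid carries no such mark.

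Lists for other cell types had few members, as the T cell lists did. Of 15 B cell markers 1 had a member, 1108 bp into Ebf1 (-1.13), and of 16 myeloid markers 2 had one, at Cebpb (-1.08) and at Fcgr3 (5.01, with a copy). Neuron markers and markers of epithelium and hepatocytes had 0. Elements are DNA from the library and not RNA of these genes, so the lists say nothing of which cells were present, and the labelled cell type could not be checked from this list.

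The densest CpG content at 200 bp or more was found at negative members of Lin28b (153 per kb, effect -2.60), Tsc22d3 (152, -2.11) and the Lncppara intron (150, -3.32). Lin28b encodes an RNA-binding protein that blocks let-7, and its element lay 82 bp from a full-set start site. Tsc22d3 encodes GILZ, a glucocorticoid-induced leucine zipper. The Lncppara element stood 17634 bp from the nearest GENCODE start site, and a second member 275 bp away had -1.61. The densest positive members were at Pdia4 (120, copies), Nr4a3 (112, effect 1.98) and Dynlt1b (98.5, effect 1.89), and the last of these had 1 copy.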

How the data were processed

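The series holds STARR-seq of 1 group of 2 biological replicates, combined by the authors in 1 element list (build mm10, per the labels). Each element's deposited effect was read as log2; its base and direction, the aligner, the caller and the input library are not given in the sources used here. Per element the deposited p-value comes with an adjusted one, which matched a Benjamini-Hochberg adjustment over 114722 implied tests within 0.1% in all 10531 elements. A further deposited column equalled the element's width. Total counts and replicate values were not analysed here, so depth and the spread between replicates are unknown.

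Positions were annotated with the GENCODE M21 basic set, and with the full set and RefSeq as alternatives. The 10 elements on unplaced scaffolds were not annotated, which left 10521. Sequence came from GRCm38.p6, where 10520 annotated elements were found by alignment at their own place. Copies were matches of at least 95% identity found with minimap2 2.31, with at most 50 recorded per element. Sequences were read with pysam 0.24.0, and statistics used SciPy 1.17.1, NumPy 2.4.6 and pandas 2.3.3 under Python 3.11.15. The interval and motif code was tested on simulated data. Members, gene lists and motifs were chosen with earlier results of these data known.

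Members named were the 8 largest and 8 most negative effects, the 3 densest in CpG of each sign at 200 bp or more, up to 3 per gene list, and genes with 3 or more members; others are said to be chosen after their values were seen, or stand as an exception to a count. Some list members that the rule names are not reported here.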

Additional observations from a re-analysis of the deposited data

Results flagged for a closer look

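Signal outside the comparisons came from 10 listed elements on unplaced scaffolds. Their sequence was not annotated here, so whether any of them would be a GC-rich distal element is not known. Of the 10, 8 had a positive and 2 a negative effect.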

How the results depend on the processing

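Of 62 recomputed values, 36 stayed within the interval of the reported value (for the number of members, within 1.5 times it) and 26 moved. The number of members, 365, was 659 at a GC minimum of 55%, 210 at 65%, 623 at a TSS distance over 500 bp, 218 over 5000 bp, 193 at an adjusted p-value of up to 0.001, and 209 with the fuller TSS sets, a choice made after seeing the data. The share of positive members, 22.7%, was 44.6% and 11.9% at those GC minimums, 16.7% at 500 bp, 27.5% at the stricter p-value, 27.8% with the fuller sets, 14.6% at a width of at least 200 bp and 15.2% without copies. The median positive effect, 1.89, was 2.75 at 65% GC, 1.36 at 200 bp or wider and 1.21 without copies. The median negative effect, -1.41, was -1.49 at 65% GC, -1.66 at the stricter p-value and -1.27 with the fuller sets. The island share, 60.8%, was 39.5% and 78.1% at those GC minimums, 69.9% at the stricter p-value, 75.5% at 200 bp or wider, 50.7% with the fuller sets, 43.6% by criteria of 500 bp, 55% GC and 0.65, and 73.2% by a 500 bp stretch in a 2000 bp window. Where not set by fewer or other elements, the cause was not tested.

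No paired analysis was possible because there is 1 group with joint values for both replicates, and for the same reason no replicate was left out. Depth and input coverage are unknown, so precision per element rests on the deposited p-values alone.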
